A study of Mus musculus with 12 samples.

Results

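The serpins are a family of proteins most of which trap serine or cysteine proteases, and the 39 genes described here are those whose array symbol consists of Serpin, a clade letter from a to i, a number and at most further letters, out of 18193 genes measured. The choice used names alone and no measured value. Clade A contributed 13 genes, clade B 18, clades F and I 2 each, and clades C, D, G and H 1 each. No probe set of the table used here was linked to a single clade E gene. Where a gene had several probe sets, as 11 of the 39 did, the one of highest mean intensity stands for it.

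Total RNA came from mammary glands of virgin C57BL/6 mice, all ovariectomised, in 4 groups of 3 separate animals. The wildtype placebo and wildtype estradiol groups were Ccnd1+/+, and the knockout placebo and knockout estradiol groups were Ccnd1-/-, with no tissue-restricted deletion named in the labels. Estradiol was given from pellets (0.72 mg, 60-day release) and treatment with pellets or placebo lasted 7 days. Age, the gland taken and the handling of its lymph node are not given in the sources used here. The title of the study poses the question of whether estrogen signalling in the gland depends on cyclin D1, which activates kinases of the cell cycle.

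An inhibitory serpin presents an exposed loop that its target protease cuts, after which both proteins are locked together and the protease is destroyed. Clade A members are mostly secreted inhibitors or hormone carriers of blood plasma, while most clade B members stay inside cells and protect them against stray proteases. Some members inhibit nothing: Serpinh1 is a chaperone of collagen, Serpinf1 is a secreted factor that restrains blood vessel growth, and Serpinb5, or maspin, is known from myoepithelial cells of the mammary gland and as a suppressor of human breast tumours.

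Values are log2 intensities. Ccnd1 was lower in the 6 knockout arrays (7.24 to 7.68) than in the 6 wildtype arrays (8.503 to 10.8, exact two-sided permutation p = 0.00216). White adipocyte markers (6 of 6 measured) and luminal epithelial markers (8 of 10) lay above the lower quartile of every array. The arrays differed in lymphocyte content within every group. A lymphocyte score, the mean of a T cell score (8 genes, each centred over the arrays) and a B cell score (7 genes), was 2.34, 1.73 and -1.97 in wildtype placebo. It was -2.20, 0.69 and -2.18 in wildtype estradiol, 1.88, -1.86 and 1.91 in knockout placebo and -2.08, 1.46 and 0.29 in knockout estradiol. A skeletal muscle score (7 markers) also differed within groups. It ranged from -1.17 to 3.78 in wildtype placebo and from 0.060 to 1.62 in wildtype estradiol. In knockout it ranged from -4.06 to 2.195 on placebo and from -3.29 to 2.505 under estradiol. In wildtype estradiol and both knockout groups the array with the lowest lymphocyte score had the highest muscle score. In wildtype placebo, array 3 was lowest in both. The part of muscle in the serpin values was not tested. Precision is limited by there being 3 arrays in a group.

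Of the 39 genes, 11 lay under the lower quartile of the array on all 12 arrays, as did 11.8% of all genes, and 22 lay above it on every array, as did 79.8% of all genes. Probe sets differ in how strongly they bind, so intensities are compared between groups and not between genes. The genes followed in detail are Serpinb11, Serpinb5 and Serpinb8, which had the smallest p-values, and the 10 whose probe sets had the highest mean.

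**Figure D1:**
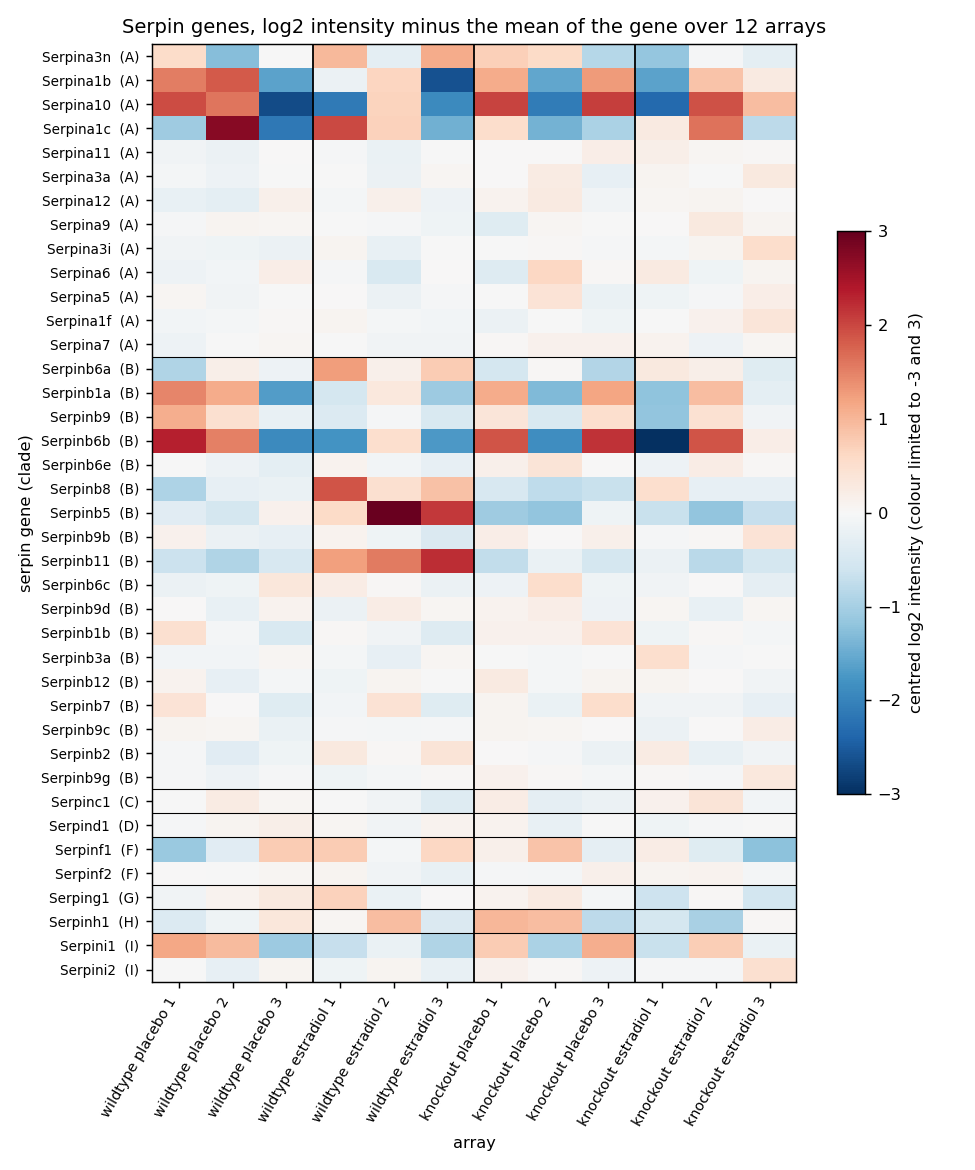
Log2 intensity of each of the 39 serpin genes (rows, by clade) on each of the 12 arrays (columns, by group), as the difference from the mean of that gene over the arrays. Serpinb11, Serpinb5 and Serpinb8 are high in the 3 wildtype estradiol arrays, and Serpinb8 also in knockout estradiol array 1. Serpina10, Serpinb6b, Serpinb1a, Serpini1 and Serpina1b alternate within groups, and most other rows are pale.

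The 3 clade B genes that stood out in wildtype glands lie in 1 run of serpin genes on chromosome 1. Their upstream sequences are shown because these genes were the ones with the smallest p-values for estradiol, and because the stretches can be read beside the values that follow. Each is the 250 bases before the annotated start of the gene on the plus strand of GRCm38.p6, from RefSeq, at chr1:107362064-107362313 for Serpinb11, chr1:106860925-106861174 for Serpinb5 and chr1:107589756-107590005 for Serpinb8. Capitals mark matches to TGANTCA, a motif chosen after the sequences had been read. It allows any base at its centre and so is looser than the core bound by AP-1 factors, which has C or G there. The match of Serpinb8 has a G at its centre, and those of Serpinb11 and Serpinb5 have an A or T.
Serpinb11: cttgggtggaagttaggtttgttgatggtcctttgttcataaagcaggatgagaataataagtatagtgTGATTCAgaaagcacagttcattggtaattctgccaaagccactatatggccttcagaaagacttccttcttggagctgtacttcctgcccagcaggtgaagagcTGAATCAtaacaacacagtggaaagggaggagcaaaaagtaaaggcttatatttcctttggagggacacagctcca
Serpinb5: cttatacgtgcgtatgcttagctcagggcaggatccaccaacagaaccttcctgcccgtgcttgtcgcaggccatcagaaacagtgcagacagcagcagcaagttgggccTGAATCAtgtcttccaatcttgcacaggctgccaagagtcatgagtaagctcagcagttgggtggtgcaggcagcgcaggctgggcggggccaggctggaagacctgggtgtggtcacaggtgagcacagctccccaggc
Serpinb8: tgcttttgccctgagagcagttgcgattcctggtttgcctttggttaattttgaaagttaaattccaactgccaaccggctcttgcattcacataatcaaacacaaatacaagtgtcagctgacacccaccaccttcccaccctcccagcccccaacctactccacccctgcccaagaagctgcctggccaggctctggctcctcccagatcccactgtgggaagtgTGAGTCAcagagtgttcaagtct

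Searched on both strands, Serpinb11 held 2 matches, starting 181 and 76 bases before the gene, Serpinb5 held 1 at 140 and Serpinb8 held 1 at 23. The motif occurred in 2217 of 32851 such windows of all promoters (6.75%). It also occurred upstream of 3 of the 4 other measured genes of the run, Serpinb12, Serpinb7 and Serpinb2, and of 2 of 27 measured serpins elsewhere with a listed promoter. The full estrogen response element GGTCANNNTGACC, searched likewise, had no match in the 3 windows, and 0.0639% of all promoter windows held one. Its half-site GGTCA, which the full element contains, matched once, 28 bases before Serpinb5, and was found in 35.2% of all windows. These matches describe letters and are not evidence of binding.

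Serpinb11, an inhibitor of trypsin-like proteases in the mouse, rose with estradiol in wildtype glands. It read 3.94, 3.69 and 4.12 in wildtype placebo, 5.83, 6.15 and 6.80 in wildtype estradiol, 3.86, 4.40 and 4.06 in knockout placebo and 4.41, 3.78 and 4.07 in knockout estradiol. The 3 wildtype estradiol arrays were above the other 9, which did not separate by genotype or treatment. The wildtype difference was 2.34 ± 0.26 on the log2 scale (SE, limma adjusted p = 0.0024). Because the 3 wildtype placebo values lay under the lower quartile of their arrays, the rise is given as at least 4.19-fold, against that quartile. In knockout the difference was -0.02 (95% interval -0.59 to 0.55). Under estradiol the knockout minus wildtype difference was -2.17 ± 0.26 (SE, limma adjusted p = 0.0094), with 2 of the 3 knockout values under the lower quartile. Against that quartile on those 2 arrays and the measured value on the third, the knockout was at least 3.90-fold lower. Both bounds are of group means and leave out the spread between arrays. The 95% intervals of the measured log2 differences were 1.77 to 2.92 and -2.75 to -1.60. The genotype call under estradiol ended without knockout estradiol array 3 (-2.17, limma adjusted p = 0.0598). It also ended in the fit of the 6 estradiol arrays alone (limma adjusted p = 0.0593) and with a luminal marker score in the fit (-1.78 ± 0.53, limma adjusted p = 0.99999). The wildtype call held in 23 of the 24 alternatives that gave a value, with adjusted p from 8.09e-05 to 0.102.

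The interaction tests whether the estradiol response of Serpinb11 differed between genotypes. It was -2.36 ± 0.37 (SE, limma adjusted p = 0.135) and did not pass. Over 23 alternatives its adjusted p ranged from 0.0134 to 0.626 and passed in 3, which were array weights, the lymphocyte score in the fit and the omission of wildtype estradiol array 1 (-2.58, limma adjusted p = 0.0458). Averaged over both genotypes the estradiol difference was 1.16 ± 0.18 (limma adjusted p = 0.0137), made of the 2.34 in wildtype and the -0.02 in knockout.

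Serpinb5, which encodes maspin, had lower intensity in the knockout when both genotypes received estradiol. It read 5.56, 5.37 and 6.04 in wildtype placebo, 6.47, 8.86 and 8.03 in wildtype estradiol, 4.84, 4.71 and 5.77 in knockout placebo and 5.24, 4.73 and 5.20 in knockout estradiol. All 3 wildtype estradiol arrays were above every other array, with array 2 highest and array 1 closest to placebo. Knockout minus wildtype under estradiol was -2.73 ± 0.52 (SE, limma adjusted p = 0.0379). This call ended on leaving out any 1 of 9 arrays, with differences between -2.82 and -2.19 and adjusted p from 0.0529 to 0.129. The call held on omission of array 3 of wildtype placebo, of array 1 of wildtype estradiol and of array 3 of knockout placebo. It also ended with the replicate number as a block (limma adjusted p = 0.0779), after quantile normalisation (0.0553) and after centring on medians (0.0627).

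The estradiol difference of Serpinb5 in wildtype was 2.13 ± 0.52 (limma adjusted p = 0.0757) and did not pass, although it did without wildtype estradiol array 1 (2.79, limma adjusted p = 0.0091) or without wildtype placebo array 3 (2.32, limma adjusted p = 0.0496). In knockout it was -0.05 (95% interval -1.20 to 1.10), and the interaction was -2.18 ± 0.73 (limma adjusted p = 0.591). The other 3 probe sets of Serpinb5 lay under the lower quartile on all 9 arrays outside wildtype estradiol, and 2 of them also on wildtype estradiol array 1, so no size is given for their differences. Their wildtype estradiol values ranged from 3.87 to 5.91, from 4.91 to 7.03 and from 3.57 to 6.15, each above the highest value of the other groups (3.37, 4.19 and 3.32).

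Serpinb8, an inhibitor of the proprotein convertase furin in human cells, had a p-value next to those of Serpinb11 and Serpinb5. It read 5.59, 6.28 and 6.33 in wildtype placebo, 8.42, 7.00 and 7.40 in wildtype estradiol, 6.04, 5.77 and 5.85 in knockout placebo and 7.03, 6.29 and 6.28 in knockout estradiol. Within each genotype the estradiol arrays lay above the placebo arrays, and wildtype estradiol array 1 was highest. The differences were 1.54 ± 0.35 in wildtype (SE, limma adjusted p = 0.0598) and 0.64 ± 0.35 in knockout (limma adjusted p = 0.678), and neither passed. In wildtype it passed without wildtype placebo array 3 (1.67, limma adjusted p = 0.0422) or wildtype estradiol array 2 (1.84, limma adjusted p = 0.0445). Its second probe set gave 1.10 and 0.28.

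**Figure D2:**
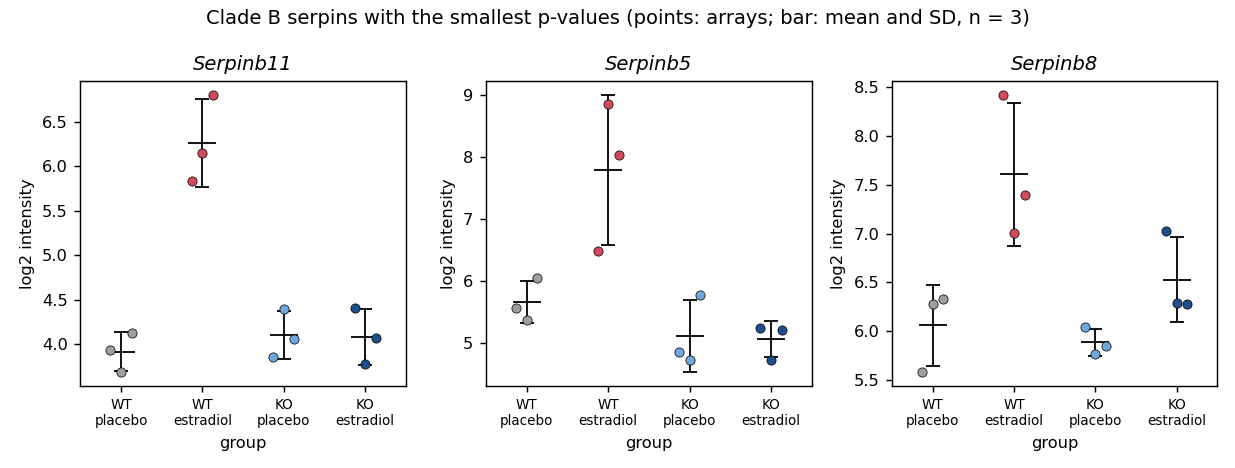
Log2 intensity of Serpinb11, Serpinb5 and Serpinb8 by group (WT, wildtype; KO, knockout; points are arrays, bars are the mean and SD of 3 arrays). The wildtype estradiol arrays of Serpinb11 (5.83 to 6.80) and Serpinb5 (6.47 to 8.86) lie above every other array, and in Serpinb8 estradiol lies above placebo in both genotypes.

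Scores of epithelial markers were highest in wildtype estradiol, as Serpinb11 and Serpinb5 were. A luminal score from 10 measured markers ranged from 1.35 to 2.87 in wildtype estradiol, -0.10 to 0.59 in wildtype placebo, -1.88 to 0.13 in knockout placebo and -1.93 to -0.70 in knockout estradiol. A basal and myoepithelial score from 10 markers ranged from 0.69 to 1.37, -0.83 to 0.03, -0.52 to -0.19 and -0.21 to 0.00095 in the same order. Of the defining markers, Krt17 lay under the lower quartile on 11 of 12 arrays, and Cdh1 and Elf5 on 3 each. With estradiol in wildtype all 10 markers of each list differed by more than 0, but not every marker followed the scores. Epcam ranged only from 7.31 to 7.83 over the 12 arrays. Foxa1 overlapped between wildtype placebo (7.93 to 8.62) and wildtype estradiol (8.04 to 9.87). Oxtr was as high in knockout estradiol (11.61 to 11.96) as in wildtype estradiol (11.48 to 11.74). More epithelial cells and more RNA per cell cannot be told apart in bulk tissue. With the luminal score in the fit, the Serpinb5 difference under estradiol was -0.35 in place of -2.73 (limma adjusted p = 0.99999), and its wildtype estradiol difference was 0.75 in place of 2.13. For Serpinb11 the same values were -1.78 (limma adjusted p = 0.99999) and 2.11 (limma adjusted p = 0.102), so both calls ended. For Serpinb8 they were -1.58 and 1.84. The residual SD around the group means went from 0.71 to 0.43 for Serpinb5 with the luminal score. It did not fall for Serpinb11 (0.34 and 0.35) or Serpinb8 (0.48 and 0.49). Within wildtype estradiol the luminal scores were 1.35, 2.87 and 1.85, and Serpinb8 was highest on array 1, where the score was lowest. Over all genes, the luminal score in the fit cut the calls from 204 to 0 for genotype under estradiol. For estradiol in wildtype it cut them from 342 to 11. The luminal scores of wildtype estradiol did not overlap those of the other groups, so this fit cannot separate the score from the group difference. A macrophage score from 9 markers was also higher in wildtype estradiol (0.47 to 1.74) than in wildtype placebo (-0.59 to -0.45), knockout placebo (-0.45 to -0.36) and knockout estradiol (-0.26 to 0.20), and its part in these results was not tested. With the lymphocyte score in the fit, Serpinb11 and Serpinb5 differed by -2.06 and -2.81 under estradiol. Skin keratinocyte scores ranged from -0.18 to 0.19 over the 12 arrays.

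The run from Serpinb5 to Serpinb8 holds 12 serpin genes in the RefSeq order and no other protein-coding gene, and 7 of the 12 were measured here. Between the 3 genes above lay 4 measured neighbours with small differences. Serpinb12, Serpinb3a and Serpinb7 differed by 0.03, -0.05 and -0.03 with estradiol in wildtype, and all 3 lay under the lower quartile on every array. Serpinb2, a plasminogen activator inhibitor also under the lower quartile throughout, read 2.71, 2.40 and 2.62 in wildtype placebo and 3.04, 2.78 and 3.11 in wildtype estradiol. Those groups did not overlap, and the difference was 0.40 ± 0.15 (limma adjusted p = 0.2495). At such intensities a change in these 4 genes may not be detectable.

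**Figure D3:**
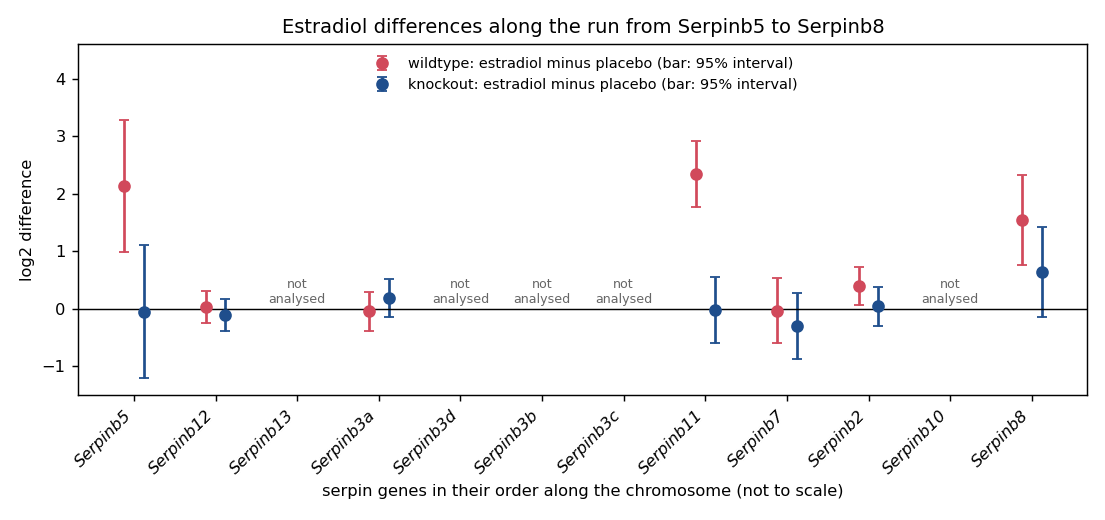
Estradiol minus placebo (log2 difference with its 95% interval) in wildtype and knockout for the serpin genes from Serpinb5 to Serpinb8 in chromosome order, not to scale. In wildtype the intervals of Serpinb5, Serpinb11, Serpinb8 and Serpinb2 lie above 0, and in knockout every interval includes 0.

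Across the family, few members passed. Estradiol in wildtype called 1 of 39 serpins, Serpinb11, which was higher, against 1.88% of all genes in either direction and 1.83% higher. At an unadjusted p under 0.05 there were 5, all higher (Serpinb11, Serpinb5, Serpinb8, Serpinb6a and Serpinb2), against 13.5% of all genes and 10.2% higher. Groups did not overlap in 4, all higher (Serpinb11, Serpinb5, Serpinb8 and Serpinb2), against 17% and 11.9%. The shares of the serpins, 12.8% by unadjusted p and 2.56% by adjusted p, were near these backgrounds.

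Estradiol in knockout called 0 by limma (0.0989% of all genes) and had 1 at an unadjusted p under 0.05, Serpina1f, against 8.32%. Groups did not overlap in 3 serpins, against 13.5%. Genotype on placebo called 0 by limma (0% of all genes), with 1 at an unadjusted p under 0.05, Serpinb6e, against 2.03%. Groups did not overlap in 2, against 6.71%. Genotype under estradiol called 2, Serpinb11 and Serpinb5, both lower in knockout, against 1.12% of all genes in either direction and 1.09% lower. It had 4 at an unadjusted p under 0.05, against 13.5%, and groups without overlap in 4, against 22.3%. The interaction called 0 by limma (0.011%) and had 2 at an unadjusted p under 0.05, Serpinb11 and Serpinb5, against 6.43%.

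The average estradiol difference called Serpinb11 alone, which was higher (1.58% of all genes, 1.43% higher), and 4 serpins had an unadjusted p under 0.05, against 16.4%. The average genotype difference called 0 by limma (0% of all genes) and had 4 at an unadjusted p under 0.05, against 10.1%: Serpinb11, Serpinb5, Serpinb8 and Serpina11. The median difference of the 39 genes was 0.01 for estradiol in wildtype and -0.04 in knockout, against 0.01 and 0.01 over all genes. Clade B held every call, and of its 18 genes 10 were above 0 and 8 below with estradiol in wildtype.

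Secreted and matrix-related serpins of high intensity showed no call in any of the 7 comparisons. Serping1, the C1 inhibitor that restrains complement and contact activation, read 11.53, 11.74 and 11.93 in wildtype placebo, 12.31, 11.44 and 11.64 in wildtype estradiol, 11.73, 11.88 and 11.57 in knockout placebo and 11.002, 11.66 and 11.09 in knockout estradiol. The groups overlapped, with knockout estradiol arrays 1 and 3 lowest. Its genotype difference under estradiol was -0.55 ± 0.24 (SE, limma adjusted p = 0.364).

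Serpinf1, pigment epithelium-derived factor, read 10.04, 10.81 and 11.92 in wildtype placebo, 11.92, 11.09 and 11.77 in wildtype estradiol, 11.29, 11.99 and 10.88 in knockout placebo and 11.36, 10.78 and 9.90 in knockout estradiol. The spread within groups was as wide as that between them. Its estradiol difference was 0.67 ± 0.51 in wildtype (SE, limma adjusted p = 0.644) and -0.70 ± 0.51 in knockout (limma adjusted p = 0.767). Serpinf1 was higher on the 5 arrays with lymphocyte scores below 0 (11.36 to 11.99) than on the 7 with scores above 0 (9.90 to 11.29). The share of all genes without overlap in this split was not counted. A fibroblast and matrix score ranged from 0.20 to 0.92 on those 5 arrays and from -1.05 to 0.48 on the 7. The part of either content in the Serpinf1 values was not tested.

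Serpinh1, the collagen chaperone, read 9.98, 10.26 and 10.73 in wildtype placebo, 10.45, 11.32 and 9.96 in wildtype estradiol, 11.40, 11.31 and 9.61 in knockout placebo and 9.88, 9.43 and 10.44 in knockout estradiol. Knockout placebo array 3 lay apart from its 2 companions, and all groups overlapped. The estradiol difference was 0.25 ± 0.50 in wildtype (SE, limma adjusted p = 0.890) and -0.86 ± 0.50 in knockout (limma adjusted p = 0.703). The fibroblast and matrix score, from 10 markers, ranged from 0.48 to 0.92 in wildtype estradiol and from -1.05 to 0.20 in wildtype placebo, so Serpinh1 did not separate those groups as that score did.

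Serpina3n, an acute phase relative of antichymotrypsin, read 10.87, 9.06 and 10.33 in wildtype placebo, 11.30, 10.04 and 11.44 in wildtype estradiol, 11.05, 10.90 and 9.47 in knockout placebo and 9.18, 10.29 and 10.04 in knockout estradiol. Neighbouring groups overlapped. The estradiol difference was 0.84 in wildtype and -0.63 in knockout, and the genotype difference under estradiol was -1.09 ± 0.58 (SE, limma adjusted p = 0.454).

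Serpinb6a, an intracellular serpin whose human counterpart inhibits cathepsin G, read 9.81, 10.88 and 10.55 in wildtype placebo, 11.96, 10.87 and 11.48 in wildtype estradiol, 10.19, 10.76 and 9.84 in knockout placebo and 11.01, 10.88 and 10.34 in knockout estradiol. Wildtype estradiol array 2 was marginally below wildtype placebo array 2, so the groups overlapped. The difference was 1.02 ± 0.36 in wildtype (SE, limma adjusted p = 0.223) and 0.48 ± 0.36 in knockout (limma adjusted p = 0.774).

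**Figure D4:**
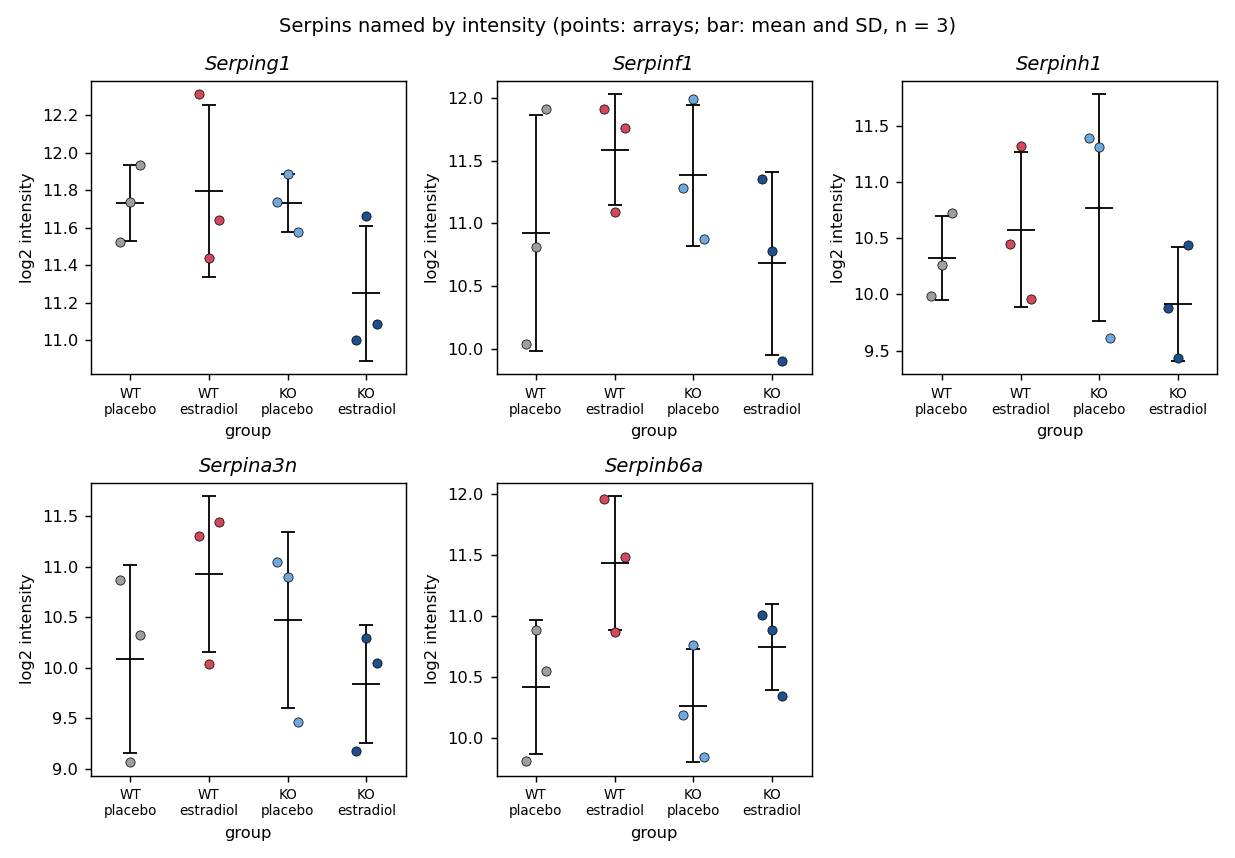
Log2 intensity of Serping1, Serpinf1, Serpinh1, Serpina3n and Serpinb6a by group (WT, wildtype; KO, knockout; points are arrays, bars are the mean and SD of 3 arrays, and each panel has its own scale). The groups compared overlap in every panel.

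A different set of serpins varied with the lymphocyte content of the arrays. When the lymphocyte score was added to the fit, the residual SD of 6 of the 39 fell to under 50% of its size, as it did for 10.6% of all genes. These were Serpina10, Serpinb6b, Serpinb1a, Serpini1, Serpina1b and Serpinb9, a set chosen from these values and therefore described without a test. The T and B cell genes behind the score include no serpin. All 8 T cell and 7 B cell markers had at least some arrays above the lower quartile, with Cd3g and Cd5 under it on 4 arrays, Ms4a1 on 3 and Cd3d on 1.

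Serpina10, the protein Z-dependent inhibitor of coagulation factor X, read 9.03, 8.68 and 4.38 in wildtype placebo, 4.96, 7.74 and 5.16 in wildtype estradiol, 9.10, 4.97 and 9.16 in knockout placebo and 4.74, 8.98 and 8.01 in knockout estradiol. Every group contained both high and low arrays. The 5 arrays with lymphocyte scores below 0 lay between 4.38 and 5.16 and the 7 others between 7.74 and 9.16. The residual SD went from 2.23 to 0.25 with the score in the fit. Its wildtype estradiol difference was -1.41 without the score (limma adjusted p = 0.775) and 0.72 with it (limma adjusted p = 0.089). The sign thus changed between the fits, and neither value passed.

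Serpinb6b, a paralogue of Serpinb6a, read 9.56, 8.75 and 5.33 in wildtype placebo, 5.45, 7.75 and 5.51 in wildtype estradiol, 9.13, 5.37 and 9.41 in knockout placebo and 4.06, 9.13 and 7.43 in knockout estradiol. The same arrays were high and low as for Serpina10. Serpinb6a, whose values are given above, had 83.8% of its residual SD left with the lymphocyte score, against 21.3% for Serpinb6b.

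Serpinb1a, an inhibitor of neutrophil elastase, lay between 7.15 and 8.30 on the 5 arrays with scores below 0 and between 8.53 and 10.3 on the others. In wildtype placebo it read 10.29, 9.93 and 7.15, in wildtype estradiol 8.30, 9.14 and 7.72, in knockout placebo 9.93, 7.49 and 10 and in knockout estradiol 7.62, 9.73 and 8.53. A neutrophil score from 6 markers was -0.18, 0.62 and -0.38 in wildtype placebo, -0.74, -0.88 and -0.76 in wildtype estradiol, 1.23, -0.25 and 1.71 in knockout placebo and -0.34, -0.71 and 0.68 in knockout estradiol. In both placebo groups the array lowest in Serpinb1a was also lowest in that score, while in both estradiol groups the array highest in Serpinb1a was lowest in it. The part of neutrophils in the Serpinb1a values was not tested.

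Serpini1, neuroserpin, an inhibitor of tissue plasminogen activator, lay between 5.14 and 5.57 on the arrays with scores below 0 and between 6.04 and 7.39 on the others. Serpinb9, an inhibitor of the cytotoxic protease granzyme B, lay between 6.76 and 7.73 and between 7.83 and 9.03. Serpina1b, an alpha-1-antitrypsin paralogue, lay between 5.12 and 7.55 and between 7.98 and 9.56. In all 6 genes the 2 sets of arrays did not overlap. The 6 had been chosen by the same score, and the share of all genes without overlap was not counted. None of the 6 passed in any comparison. The differences for estradiol in wildtype were -1.65 for Serpinb6b, -0.74 for Serpinb1a, -0.94 for Serpini1, -1.30 for Serpina1b and -0.75 for Serpinb9. With the lymphocyte score in the fit they were 0.38 for Serpinb6b, 0.46 for Serpinb1a, 0.14 for Serpina1b and -0.23 for Serpinb9. The other probe sets of Serpini1 gave -0.72 and 0.0071 for estradiol in wildtype without the score. The latter probe set lay between 2.34 and 2.67, under the lower quartile of every array.

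**Figure D5:**
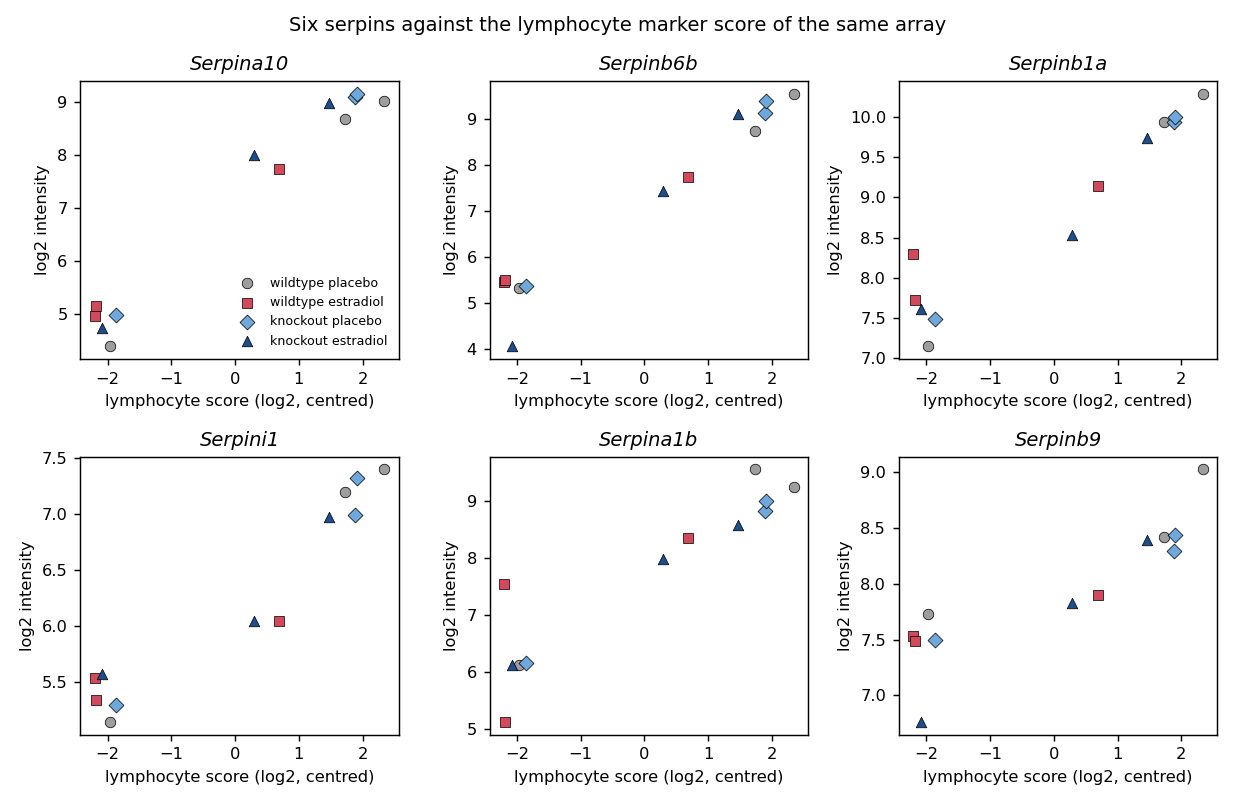
Log2 intensity of 6 serpins (vertical axes) against the lymphocyte score of the same array (horizontal axis, mean centred log2 of T and B cell markers), with symbols for the 4 groups. The 5 arrays with scores near -2 hold the lowest values in every panel, and each of the 4 groups has arrays on both sides.

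Near-identical paralogues can share probes, so values of the Serpina1, Serpina3, Serpinb6 and Serpinb9 subfamilies may mix copies. Serpina1c, a further alpha-1-antitrypsin copy, did not follow Serpina1b: it read 5.47, 9.26 and 4.40 in wildtype placebo, 8.52, 7.23 and 5.09 in wildtype estradiol, 7.08, 5.11 and 5.59 in knockout placebo and 6.82, 8.16 and 5.75 in knockout estradiol. Its highest values, 9.26 and 8.52, came from 1 placebo and 1 estradiol array. Markers of hepatocytes, the cells best known for alpha-1-antitrypsin, had scores between -0.23 and 0.29 over the arrays. The score was highest on the same 2 arrays as Serpina1c, at 0.29 and 0.24. Of the 7 markers in that list Apoa1 was highest on the same 2 arrays, at 7.64 and 7.22. Ttr was also highest on them, at 6.27 and 6.39, within a range of 5.88 to 6.39 over all arrays. Others peaked elsewhere: Alb was highest on wildtype placebo array 3 (10.79), Apoa2 on knockout estradiol array 3 (7.22), Fgb on knockout placebo array 3 (7.65) and Apob on knockout placebo array 2 (5.34). Their part in the Serpina1c values was not tested.

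Including Serpina1c and Serpini1, 26 serpins were not singled out by intensity or p-value. Over these the smallest adjusted p in any of the 7 comparisons was 0.2495, for Serpinb2. In 100 of their 104 differences within genotype or within treatment the size was under 0.5. The exceptions belonged to Serpina1c, at 0.98 ± 1.26 with estradiol in knockout and 0.57 in wildtype, and to Serpini1, at -0.94 ± 0.67 in wildtype and 0.56 for genotype under estradiol.

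Among plasma inhibitors, Serpina1b, Serpina1c and Serpina10 varied widely over the arrays, as given above, and 3 others had narrow ranges. Serpinc1, antithrombin, ranged over the 12 arrays from 4.74 to 5.52, Serpind1, heparin cofactor II, from 5.55 to 5.93 and Serpinf2, the plasmin inhibitor, from 5.69 to 6.06. The carriers Serpina6, of glucocorticoids, and Serpina7, of thyroid hormone, ranged from 3.25 to 4.32 and from 2.35 to 2.65, in which Serpina6 was under the lower quartile on 11 arrays and Serpina7 on 12. The largest difference among Serpinc1, Serpind1 and Serpinf2 was 0.31 ± 0.17 (limma adjusted p = 0.473), in Serpinc1 for genotype under estradiol. In the remaining 11 clade B genes the largest was the 0.40 of Serpinb2, and 7 of the 11 lay under the lower quartile on every array.

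Proteases and partners of serpins were read from lists of known targets, receptors and other inhibitors. Of 16 measured proteases of coagulation, plasminogen activation and complement, 0 passed by limma in any of the 7 comparisons. Of 9 leukocyte and mast cell proteases 1 rose with estradiol in wildtype, against 1.88% of all genes: Prtn3, proteinase 3, a target of several serpins. Prtn3 read 5.65, 6.42 and 6.05 in wildtype placebo, 9.08, 7.66 and 9.57 in wildtype estradiol, 6.14, 6.46 and 7.20 in knockout placebo and 8.40, 8.66 and 8.60 in knockout estradiol. Estradiol lay above placebo in both genotypes, at 2.73 ± 0.44 in wildtype (SE, limma adjusted p = 0.014). Prtn3 was also called, higher, for estradiol averaged over genotypes, against 1.58% of all genes. The neutrophil score was lower in wildtype estradiol (-0.88 to -0.74) than in wildtype placebo (-0.38 to 0.62). The macrophage and myeloid score lay higher under estradiol, as Prtn3 did, in both genotypes. It ranged between -0.59 and -0.45 in wildtype placebo and between 0.47 and 1.74 in wildtype estradiol, and between -0.45 and -0.36 in knockout placebo and between -0.26 and 0.20 in knockout estradiol. The part of either cell type in the Prtn3 values was not tested.

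Of 7 epithelial membrane proteases 1 passed with estradiol in wildtype and 1 for genotype under estradiol, against 1.88% and 1.12% of all genes. Both calls were Tmprss11a, which rose at least 5.21-fold with estradiol in wildtype against the lower quartile (limma adjusted p = 0.0049) and was at least 5.05-fold lower in knockout under estradiol (limma adjusted p = 0.015). These bounds too are of group means and leave out the spread between arrays. Tmprss11a was also called, higher, for estradiol averaged over genotypes, against 1.58% of all genes. It read 5.18, 7.75 and 6.81 in wildtype estradiol and between 2.68 and 3.36 on all other arrays. The luminal score was likewise highest in wildtype estradiol (1.35 to 2.87, against at most 0.59 elsewhere), and its part in the Tmprss11a values was not tested. Cathepsins, 9 measured, had no call by limma in any of the 7 comparisons. Among 10 receptors and cofactors 2 rose with estradiol in wildtype, against 1.88% of all genes. Lrp1, the endocytic receptor that clears serpin-protease complexes, rose by 1.51 ± 0.32 (limma adjusted p = 0.0447), from 9.30, 9.90 and 10.77 to 11.58, 11.36 and 11.56, and Sdc1 by 2.63 ± 0.29 (limma adjusted p = 0.0023). Averaged over genotypes 2 of the 10 were called higher with estradiol, Lrp1 and Sdc1, and 1 lower, Vtn, against 1.58% of all genes. Vtn, vitronectin, which binds plasminogen activator inhibitors, fell on that average by 0.90 (limma adjusted p = 0.0426).

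Of 22 other protease inhibitors 3 rose with estradiol in wildtype, against 1.88% of all genes: Timp1 by 2.67, Timp2 by 1.47 and Tfpi2, a Kunitz-type inhibitor of plasmin, by 1.51 ± 0.32 (limma adjusted p = 0.0437). Wfdc2, a secreted protein with inhibitor-like domains, was lower in knockout under estradiol (-2.48 ± 0.47, limma adjusted p = 0.0385), from 8.26, 10.02 and 8.79 in wildtype to 6.76, 6.16 and 6.72. Averaged over genotypes 2 of the 22 rose, against 1.58% of all genes: Timp1 by 1.98 (limma adjusted p = 0.0193) and Itih4 by 1.59 (limma adjusted p = 0.0376). Timp2 and Tfpi2 did not pass there (limma adjusted p = 0.0782 and 0.158). The median wildtype difference of the 22 was 0.23, against 0.01 in the 39 serpins and 0.01 over all genes.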

How the data were processed

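Mammary gland RNA of 12 mice was measured on 12 one-colour Affymetrix arrays. The deposited values are log2 intensities per probe set, normalised by the authors over the arrays; RMA (no version) and limma 2.9.16 are named per the submitters' processing notes, and the chip definition is not given in the sources used here. Array medians lay between 5.73 and 5.80. Of 45101 probe sets, 34945 had 1 gene, 932 had several, 9160 had none and 64 were controls. Symbols are those of the platform table.

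From these, 1 limma fit (3.58.1, R 4.3.3) of 4 group means over 18193 genes gave 7 comparisons, with two-sided p-values, a Benjamini-Hochberg adjustment across the whole table and a call at an adjusted p under 0.05. The test was also run on simulated arrays with noise drawn independently for each gene. Those arrays lack the lymphocyte variation that genes share here, so that run does not measure the error rate in these data. Genes were named when called, when p was under 0.01 in a main comparison, or when among the 10 highest means; up to 2 others per clade could be named, and Serpina11, Serpina1f and the remaining neighbours of Serpinb11 were added after their values were seen. The members and lists were chosen with earlier results of these data known. Alternatives covered probe set choice, dim genes, scaling, eBayes settings, array weights, a replicate block, 6-array fits, thresholds, lymphocyte and luminal covariates and leaving out each array. Promoters (34 of 39 genes) came from RefSeq. Figures used matplotlib 3.10.9.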

Additional observations from a re-analysis of the deposited data

How the results depend on the processing

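For 51 named differences, 591 of 640 values under the 14 alternatives other than leaving out an array kept direction and side of the threshold, and 21 changed sign. The count of serpins called was 1 for estradiol in wildtype, 2 for genotype under estradiol, 1 for average estradiol and 0 in the other 4 comparisons. Leaving out the dimmest 40% of genes removes Serpinb11 and Serpinb5 and made the first 3 counts 0, 0 and 0. The luminal score in the fit also made them 0, 0 and 0. Over all genes the calls were then 11, 0 and 74, against 342, 204 and 287 without it. Genotype under estradiol became 1 after quantile normalisation, median centring, a replicate block or a threshold of 0.01, and 0 in the fit of 6 arrays. Array weights, whose estimate did not converge fully, gave 9 for estradiol in wildtype, 9 for average estradiol, 1 for the interaction and 1 for average genotype, with 4702 genes called in wildtype against 342. A threshold of 0.10 gave 3 and 2 for the 2 estradiol comparisons, and 0.01 gave 0 for average estradiol. The lymphocyte score gave 1 for the interaction and 1 for average genotype. Without wildtype placebo array 3 and knockout placebo array 2, chosen after seeing the data, the counts were 4 and 5 for estradiol in wildtype and average estradiol. Leaving out each array gave 1 to 3 in estradiol in wildtype, 0 to 2 in genotype under estradiol, 0 to 1 in the interaction, 1 to 2 in average estradiol and 0 to 2 in average genotype. The causes were not tested, except where the filter removed the gene.

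Signs that changed belonged to differences that had not passed. With the lymphocyte score, estradiol in wildtype became 0.72 for Serpina10, 0.14 for Serpina1b, 0.46 for Serpinb1a, 0.38 for Serpinb6b and -0.020 for Serping1. Estradiol in knockout became 0.33 for Serpina10, 0.12 for Serpina1b and 0.0024 for Serpinb5, and genotype under estradiol became -0.28 for Serpina1b, -0.45 for Serpinb1a, -0.54 for Serpinb6b and -0.28 for Serpinb9. With the luminal score, genotype became 0.43 on placebo and 0.039 on average for Serpinb5, and under estradiol -0.048 for Serpinb1a and -0.20 for Serpinb9. Median centring gave -0.061 for Serping1 in wildtype, and array weights gave 0.037 for Serpinb11 in knockout and 0.0073 for Serpinb5 on placebo. Without the 2 placebo arrays, Serpinb11 in knockout was 0.13 and Serpinb8 for genotype on placebo 0.017. Leaving out single arrays gave -0.19 to 0.25 for Serping1 and -0.12 to 0.56 for Serpinh1 in wildtype. In knockout it gave -1.89 to 0.75 for Serpina10, -1.36 to 0.28 for Serpina1b, -0.18 to 0.13 for Serpinb11, -0.25 to 0.28 for Serpinb5, -2.40 to 0.31 for Serpinb6b and -0.78 to 0.035 for Serpinb9. Under estradiol it gave -0.40 to 1.27 for Serpina1b, -0.31 to 0.75 for Serpinb1a, -0.49 to 2.05 for Serpinb6b and -0.35 to 0.47 for Serpinb9.

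Median centring moved the median of all genes to -0.12 for estradiol in wildtype and 0.19 for genotype under estradiol, from 0.01 and 0.03, and the share of higher genes among those called for genotype under estradiol from 2.94% to 13%. The replicate numbers did not pair the arrays: same-numbered arrays of different groups had deviations correlated at -0.74 to 0.66, and 0 of 12 arrays correlated best with their own number. The replicate block changed the count only for genotype under estradiol. Genes under the lower quartile on all arrays give no information on small changes.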

Other observations

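Probe sets shared by several serpins entered no comparison above. The one shared by Serpina1d and Serpina1a differed by -0.90 ± 0.83 (SE) with estradiol in wildtype and by -0.93 in knockout. That shared by Serpina1e, Serpina1c and Serpina1b differed by -0.40 ± 0.11 in wildtype (limma adjusted p = 0.161 over all probe sets) and by 0.0062 in knockout. That shared by 4 copies of Serpinb9 differed by 0.03 and -0.10. The mean intensities of the last 2 were 3.25 and 3.82, under the lower quartile of every array (4.15 to 4.29). None of these passed. For the named members, 9 further probe sets gave 36 differences within genotype or within treatment, of which 34 had the sign of the probe set used and 2 the opposite sign.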
